A study of Saccharomyces cerevisiae with 6 samples.

Results

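The *AAD* genes of *Saccharomyces cerevisiae* encode putative aryl-alcohol dehydrogenases, and 7 systematic names of the family were followed in nascent RNA of a *dbp2Δ* strain and a wild-type strain. The members were chosen by gene identifier with results of this same strain comparison known, so their levels and fold changes are given as a description, with no p-value for any member. Of the 7 names, 6 had a row among the 7032 genes counted, namely *AAD3* (YCR107W), *AAD15* (YOL165C), *AAD4* (YDL243C), *AAD6* (YFL056C), *AAD10* (YJR155W) and *AAD14* (YNL331C). *AAD16* (YFL057C) had no row of its own. The R64 annotation joins it with *AAD6* into a single pseudogene, and whether the *AAD6* row counts this joined feature is not known. A transcript on the opposite strand was listed for 1 member, *AAD14*, of the 1669 genes with such a transcript. All 6 members passed the filter on low counts, and *AAD15* passed through the *dbp2Δ* libraries alone.

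Aad proteins resemble the aryl-alcohol dehydrogenase of the white-rot fungus *Phanerochaete chrysosporium*, an enzyme that reduces aromatic aldehydes during lignin breakdown. They belong to the aldo-keto reductases, NADPH-dependent enzymes that turn aldehydes and ketones into alcohols. Budding yeast carries several copies near chromosome ends, some of which are known to be induced by oxidants through the transcription factor Yap1, and the physiological role of most copies is not known. Dbp2 is a DEAD-box RNA helicase, an enzyme that remodels RNA structures and RNA-protein complexes.

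TT-seq measures newly made RNA, which carries a thiol-modified base supplied to the cells and can be pulled down by it, so that a level depends on synthesis more than on what had accumulated before. The study compared 3 *dbp2Δ* cultures with 3 wild-type cultures, described as biological replicates, to ask how loss of *DBP2* affects sense and antisense transcripts. The paper lists the *dbp2Δ* strain as MATα *dbp2::KanR ura3Δ0 leu2Δ0 his3Δ0* with *TRP1*, *MET* and *LYS* intact. It lists the wild-type strain as BY4741, MATa *his3Δ1 leu2Δ0 met15Δ0 ura3Δ0*. Both carried the empty URA vector pRS426, grew at 30 °C without uracil on 2% glucose to an OD600 of 0.5, and were labelled with 4-thiouracil at 0.32 mg/ml for 10 min. The strains thus differ in mating type and auxotrophies as well as in *DBP2*, and these differences cannot be told apart.

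The libraries held 6968216 to 8659542 gene counts in *dbp2Δ* and 11177517 to 13134963 in wild-type. *DBP2* itself had 0, 0 and 2 counts in *dbp2Δ*, against 10976, 11136 and 11213 in wild-type. *LYS2*, which the genotype given for the wild-type strain does not list as deleted, had 4477, 4710 and 5894 counts in *dbp2Δ* and 1, 0 and 1 in wild-type. At *LYS2* the wild-type libraries thus do not match the listed genotype, and the reason was not tested. *MET17* had 2029, 1505 and 2030 counts in *dbp2Δ* and 0, 0 and 0 in wild-type. *STE2*, expressed in **a** cells, had 134 to 168 counts in *dbp2Δ* and 11313 to 15997 in wild-type, and *MF(ALPHA)1*, expressed in α cells, had 14235 to 17616 in *dbp2Δ* and 6 to 31 in wild-type. The *dbp2Δ* replicates lay closer together (biological coefficient of variation 9.83%) than the wild-type replicates (26.5%). Wild-type replicate 3 stood furthest from its group, with correlations of depth-scaled log2 counts of 0.957 and 0.968 with the other wild-type libraries, against 0.982 between those and 0.992 for every *dbp2Δ* pair.

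The *AAD* genes are similar enough that some reads could be assigned to more than 1 copy. The R64 annotation sorts the family into the pairs *AAD3* with *AAD15*, *AAD4* with *AAD6* (and *AAD16*), and *AAD10* with *AAD14*. In pairwise alignments of the coding regions, *AAD3* and *AAD15* were 97.7% identical over 432 aligned bases, with a longest identical run of 102 bases. *AAD4* and *AAD6* were 89.7% identical, with a longest run of 123 bases. *AAD10* and *AAD14* were 85.7% identical, with a longest run of 41 bases, while *AAD14* was 90.5% identical to *AAD4*. The lowest identity, 76.0%, was between *AAD15* and *AAD10*.

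**Figure D1:**
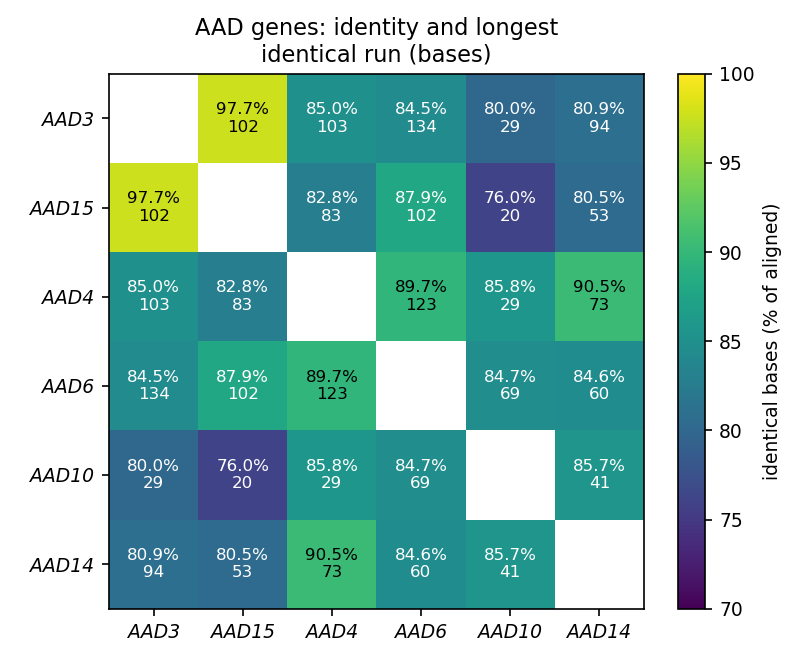
Identity between *AAD* genes. Each cell gives, for the gene in its row and the gene in its column, the percentage of aligned bases that were identical (colour scale, 70 to 100%) and below it the longest identical run in bases; *AAD3* and *AAD15* stand out at 97.7%, and the longest run, 134 bases, is shared by *AAD3* and *AAD6*.

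The stretch of 30 bases without gaps in which the copies differ most, with 19 variable positions, is shown. It is the most favourable stretch by this measure and does not show how far reads from the rest of each gene can be separated. Capitals mark the positions at which the 6 genes are not all the same, and each line is the coding strand 5′ to 3′ from the RefSeq R64 sequence.
AAD3 (chrIII:314650-314679, plus strand): aGGgTAtTcgtTcTTtCGTTggCGCCTcCG
AAD15 (chrXV:1949-1978, minus strand): aGTgTAtTcgtTcTTtCGTTggCGCCTcCG
AAD6 (chrVI:14634-14663, minus strand): aGGgTAtTcgtTcTTtCGTTggCGCCTcTG
AAD4 (chrIV:17906-17935, minus strand): aGGgTCtGcgtAcTGtTTCGggTACTTcTA
AAD10 (chrX:727910-727939, plus strand): aAGgCTtGcgtAcCTtTTTTggTACTTcGG
AAD14 (chrXIV:16450-16479, minus strand): aGGgTCtGcgtAcTTtTGTGggTGGCCcCG
In this window *AAD6* lies next to *AAD3* and *AAD15*, not to *AAD4*.

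Of all windows of 50 bases in each gene, the share found again elsewhere in the genome was 35.2% for *AAD15*, 25.8% for *AAD3*, 21.4% for *AAD4*, 20.7% for *AAD6*, 8.2% for *AAD14* and 2.4% for *AAD10*. At 100 bases the share was 7.6% for *AAD3*, 5.7% for *AAD6*, 3.1% for *AAD4*, 0.9% for *AAD15* and 0 for *AAD10* and *AAD14*, and at 150 bases it was 0 for all 6. For the read length and the treatment of reads matching several places, no statement was given in the sources used here. Counts of single members are therefore uncertain to an extent that was not tested, and the order of the members in this respect depends on the window length.

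Values below are counts normalized by edgeR's TMM method and given at the mean library size, and n is 3 libraries per strain throughout. Across the family, 2 of the 6 counted members, *AAD6* and *AAD15*, lay higher in all *dbp2Δ* libraries than in any wild-type library, while the other 4 overlapped between strains with fold changes below 0. The libraries of the strains did not overlap for 55.6% of the 5943 genes tested, and all *dbp2Δ* libraries were the higher ones for 27.3%. The same 2 members passed an adjusted p under 0.05 in edgeR's quasi-likelihood test, against a background of 42.0% of all genes tested, and since the comparison entered the choice of members nothing is read from this count. The median log2 fold change of the 6 members was −0.22, and that of all genes tested was −0.02 with quartiles of −0.44 and 0.40.

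**Figure D2:**
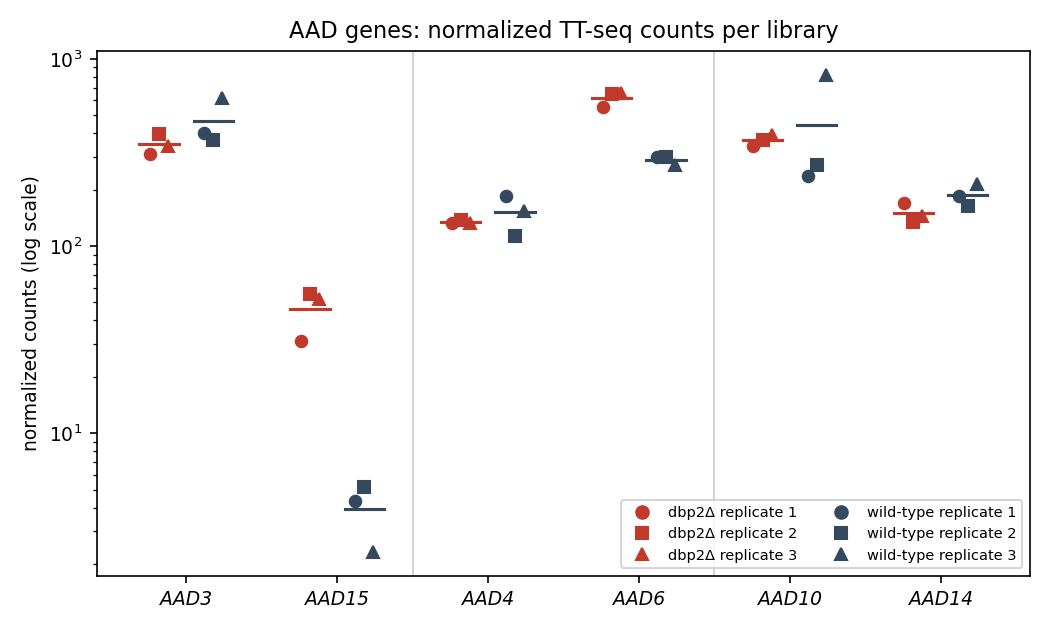
Normalized TT-seq counts of the 6 counted *AAD* genes in each library, on a log scale. Red symbols are *dbp2Δ* and dark blue symbols wild-type, the symbol shape gives the replicate and the bar is the mean of 3. *AAD15* and *AAD6* are separated between strains, and wild-type replicate 3 is the highest library for *AAD3*, *AAD10* and *AAD14*.

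*AAD15* is a short open reading frame of 432 bp on chromosome XV (1647–2078, minus strand), 1646 bp from the chromosome end, with 143 codons before its stop. It had 31.2, 55.2 and 52.2 normalized counts in *dbp2Δ*, against 4.34, 5.17 and 2.33 in wild-type. These values come from 23, 43 and 46 reads in *dbp2Δ* and 5, 6 and 3 reads in wild-type. *AAD15* was thus close to undetected in the wild-type libraries and low in the *dbp2Δ* libraries. The log2 fold change was 3.53 ± 0.42 (SE), with group means of 46.2 ± 13.1 and 3.94 ± 1.46 (SD).

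Its longer paralog *AAD3* lies on chromosome III (313890–314981, plus strand), 1639 bp from the chromosome end, and is 1092 bp long with 363 codons. It had 310.9, 394.1 and 342.8 normalized counts in *dbp2Δ*, against 401.9, 367.7 and 620.0 in wild-type. The strains overlapped, and the log2 fold change was −0.41 ± 0.21 (SE). *AAD15* could share reads with *AAD3* and also with *AAD6*, with each of which it has an identical run of 102 bases. For every 100 *AAD3* reads there were 10.0, 14.0 and 15.2 *AAD15* reads in *dbp2Δ*, against 1.08, 1.41 and 0.375 in wild-type. For every 100 *AAD6* reads there were 5.64, 8.57 and 8 *AAD15* reads in *dbp2Δ*, against 1.46, 1.73 and 0.86 in wild-type. These ratios restate the fold changes of the genes, and the part of shared reads in the *AAD15* counts was not tested.

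*AAD6* lies on chromosome VI (14305–15431, minus strand), 14304 bp from the chromosome end, and is annotated as a pseudogene of 1127 bp whose 2 open reading frames are displaced by a frameshift. It had 553.8, 644.5 and 652.7 normalized counts in *dbp2Δ*, against 297.8, 298.0 and 270.5 in wild-type. All *dbp2Δ* libraries were above all wild-type libraries, and replicates of each strain were close to each other. The log2 fold change was 1.10 ± 0.12 (SE), with group means of 617.0 ± 54.9 and 288.7 ± 15.8 (SD).

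*AAD4*, the paralog of *AAD6* with an intact frame of 329 codons, lies on chromosome IV (17577–18566, minus strand) and is 990 bp long. It had 133.0, 137.4 and 132.8 normalized counts in *dbp2Δ*, against 185.8, 113.7 and 153.4 in wild-type. The *dbp2Δ* values lay within the wild-type range, with a log2 fold change of −0.17 ± 0.21 (SE). For every 100 *AAD4* reads there were 416, 469 and 491 *AAD6* reads in *dbp2Δ*, against 160, 262 and 176 in wild-type. All *dbp2Δ* ratios lay above all wild-type ratios, which restates the fold changes of both genes.

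The frame of *AAD6* ends after 212 codons. In the alignment with *AAD4*, *AAD4* has 1 base more after its base 377, counted from the start codon, which corresponds to base 515 of *AAD6*. Further on, *AAD4* has 2 bases more after its base 642, and *AAD6* has 2 bases more after base 651 of *AAD4*. The stretches around the first gap are shown because they separate the intact from the shifted copy. The capital letters mark the extra base of *AAD4*, as aligned, and the 2 bases that flank the gap in *AAD6*. The extra base lies in a run of G, so which G of the run is extra cannot be told.
AAD4 (chrIV:18175-18204, minus strand): tattttagttcagcaGggcaaagtcctcta
AAD6 (chrVI:14902-14931, minus strand): cattctagtgcagcAGgcaaggtcctctat
*AAD6* was the most abundant of the 6 members per length in *dbp2Δ*, and its frame is interrupted.

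The element TTACTAA, bound by Yap1, was searched on both strands (so also as TTAGTAA) in the 500 bases before each start codon. Matches occurred upstream of *AAD4* and *AAD6* and of none of the other 4 members, and 708 of 6000 annotated genes (11.8%) held a match. The matches are shown with their neighbouring bases as RefSeq R64 sequence, with the element in capitals and its first base counted back from the start codon.
AAD4 at −453 (chrIV:19001-19030, minus strand): catacaaacaaTTACTAAtatttttttaat
AAD4 at −356 (chrIV:18904-18933, minus strand): tcaacataaaaTTAGTAAgcagacctcgtt
AAD6 at −242 (chrVI:15655-15684, minus strand): tcacatttcgcTTACTAAttttgctctcaa
AAD6 at −223 (chrVI:15636-15665, minus strand): tttgctctcaaTTAGTAAgcaaatccgtat
Both genes of this pair hold the element in each orientation, and the log2 fold changes given above were −0.17 for *AAD4* and 1.10 for *AAD6*. A match describes these letters only, and binding was not measured.

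*AAD10* lies on chromosome X (727405–728271, plus strand), is 867 bp long and has 288 codons. It had 340.7, 368.5 and 393.9 normalized counts in *dbp2Δ*, against 235.3, 269.6 and 823.0 in wild-type. A single wild-type library thus lay above all *dbp2Δ* libraries and the other 2 below them. The log2 fold change was −0.27 ± 0.45 (SE) with all libraries, and 0.54 without wild-type replicate 3. The sign for *AAD10* therefore rests on 1 library.

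*AAD14* lies on chromosome XIV (16118–17248, minus strand), is 1131 bp long and has the longest intact frame, 376 codons. It had 169.7, 134.8 and 144.2 normalized counts in *dbp2Δ*, against 185.8, 164.5 and 213.1 in wild-type. The strains overlapped by 1 *dbp2Δ* library, with a log2 fold change of −0.33 ± 0.17 (SE). For every 100 *AAD14* reads there were 201, 273 and 273 *AAD10* reads in *dbp2Δ*, against 127, 164 and 386 in wild-type. These ratios overlapped between the strains.

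**Figure D3:**
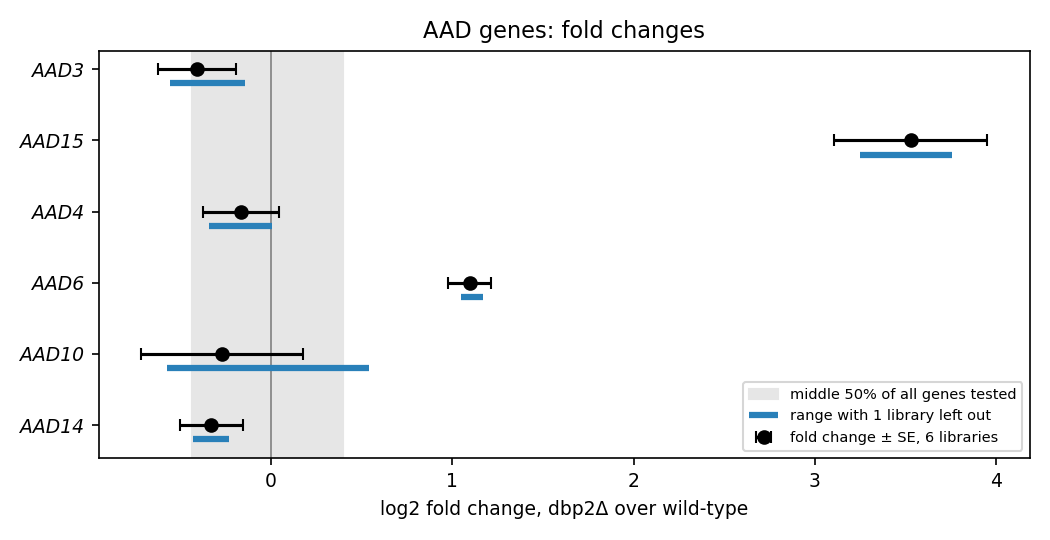
Log2 fold changes of the 6 counted *AAD* genes, *dbp2Δ* over wild-type, with 0 marking equal levels. Points with bars are the fold change ± SE over 6 libraries, and blue bars the range when each library was left out in turn. The grey band is the middle 50% of all genes tested (−0.44 to 0.40). *AAD15* and *AAD6* lie outside the band. The range of *AAD10* spans 0, as does that of *AAD4*, which reaches 0.01.

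With each library left out in turn, *AAD6* ranged from 1.05 to 1.17, *AAD15* from 3.25 to 3.76, *AAD3* from −0.56 to −0.14, *AAD14* from −0.43 to −0.23 and *AAD4* from −0.34 to 0.01. *AAD10* ranged from −0.57 to 0.54. Relative to the mean of the other wild-type libraries, wild-type replicate 3 was higher by 1.70 on the log2 scale for *AAD10*, at percentile 98.8 of 5431 genes. It was higher by 0.69 for *AAD3* (percentile 90.8) and lower for *AAD15* (−0.90, percentile 2.2), and the other members lay between −0.14 and 0.28. The value of *AAD15* rests on 3 reads against 5 and 6. Its percentile is among genes with a wild-type mean of at least 50 normalized counts, while its own mean was 3.94, so nothing is read from it. Apart from *AAD15*, the members ran from −0.14 to 1.70 in this library and thus did not deviate by a like amount.

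Per kilobase of gene length, the order of levels differed between the strains. Lengths are those of R64. In *dbp2Δ* the order was *AAD6* (548 ± 48.7), *AAD10* (424 ± 30.7), *AAD3* (320 ± 38.5), *AAD4* (136 ± 2.60), *AAD14* (132 ± 16.0) and *AAD15* (107 ± 30.3), each as mean ± SD of normalized counts per kb. The libraries of *AAD14* overlapped with those of *AAD4* and of *AAD15*, and the first 3 genes were separated from each other and from the rest. In wild-type the order was *AAD10* (510.5 ± 380.5), *AAD3* (424 ± 125), *AAD6* (256 ± 14.0), *AAD14* (166 ± 21.6), *AAD4* (152.5 ± 36.5) and *AAD15* (9.13 ± 3.38). There *AAD10* overlapped with *AAD3*, and *AAD4* with *AAD14*, while *AAD15* lay far below. The difference between *AAD10* and *AAD6* was smaller than the SD of *AAD10*. The median gene was at 616 normalized counts per kb in *dbp2Δ* and 646 in wild-type, so with these lengths every member was below the median gene in both strains. This does not hold for *AAD6* if only its first frame of 639 bp was counted, since its level would then be 966 ± 85.9 in *dbp2Δ*, above the median gene, and 452 ± 24.7 in wild-type, between *AAD10* and *AAD3*.

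Summed over the 6 genes, in which reads assigned to the wrong member cancel but reads dropped for matching several places do not, the family had 1539, 1734 and 1719 normalized counts in *dbp2Δ*, against 1311, 1219 and 2082 in wild-type. The strains overlapped through wild-type replicate 3. The log2 ratio of the means was 0.11, with 1664 ± 108 in *dbp2Δ* and 1537 ± 474 in wild-type (SD), and it ran from −0.04 to 0.39 when each library was left out. *AAD6* made up 37.0 ± 1.01% of the family's counts in *dbp2Δ* and 20.1 ± 6.18% in wild-type, and *AAD3* made up 21.0 ± 1.54% in *dbp2Δ* and 30.2 ± 0.445% in wild-type. *AAD15* accounted for 2.75 ± 0.629% in *dbp2Δ* and 0.289 ± 0.16% in wild-type.

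The transcript antisense to *AAD14* lies on chromosome XIV (16388–17821, plus strand, 1434 bp) and belongs to the XUTs, non-coding RNAs that accumulate when the exonuclease Xrn1 is absent. It covers 76.1% of the gene from the start codon side, leaves the last 270 bp free and extends 573 bp beyond the start codon, ending 179 bp before *RPD3*. It had 343.4, 329.9 and 320.1 normalized counts in *dbp2Δ*, against 223.1, 178.3 and 230.9 in wild-type. All *dbp2Δ* libraries were above all wild-type libraries, which held for 31.0% of the 2167 antisense transcripts tested, and 42.2% of them passed an adjusted p under 0.05 in either direction. The log2 fold change was 0.65 ± 0.13 (SE), while the sense gene had −0.33 ± 0.17.

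The antisense reads outnumbered the sense reads at *AAD14* in every library. The reads are not scaled by length, and the antisense transcript (1434 bp) is longer than the gene (1131 bp). A ratio of reads above 1 therefore need not mean more antisense than sense per length. All *dbp2Δ* ratios below lay above the ratio of these lengths, and all wild-type ratios lay below it. With these lengths, the antisense strand thus had the higher level per length in *dbp2Δ* and the sense strand in wild-type. There were 2.02, 2.45 and 2.22 antisense reads for each sense read in *dbp2Δ*, against 1.20, 1.08 and 1.08 in wild-type. The ratios did not overlap, and the log2 ratio of their means was 0.99, with 0.92 to 1.06 when a library was left out. These ratios restate the antisense and sense fold changes given above. How often such ratios separate the strains at other genes was not tested, so nothing is read from the separation. The library kit marks strand, but how strand was set in featureCounts was not given in the sources used here, and how cleanly both strands were separated was not tested.

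**Figure D4:**
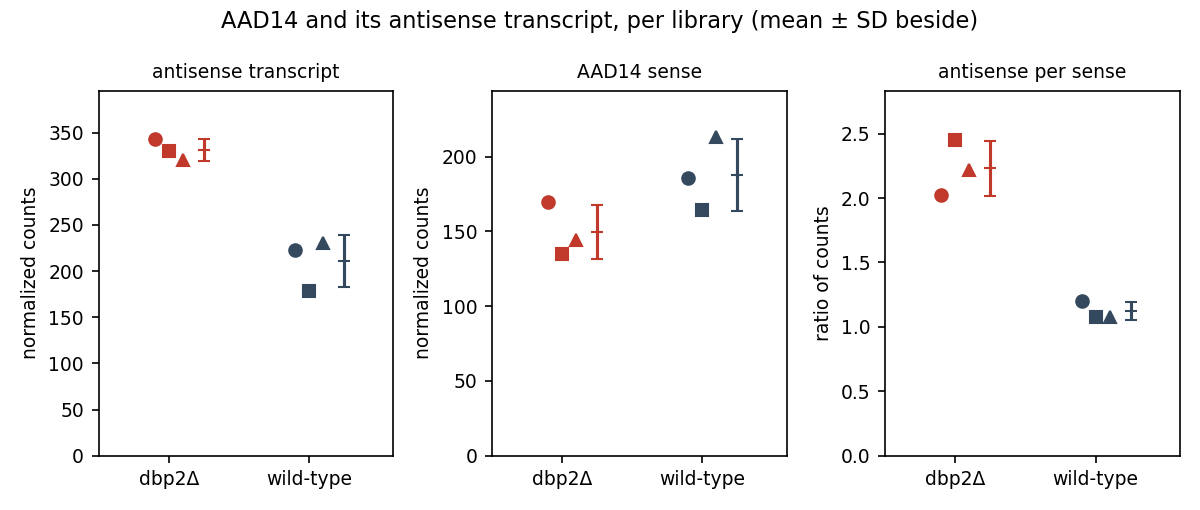
*AAD14* and the transcript on its opposite strand. Panels show normalized counts of the antisense transcript, normalized counts of the sense gene and antisense reads per sense read for each library of *dbp2Δ* (red) and wild-type (dark blue), with mean ± SD beside them and axes from 0; the antisense counts (320.1 to 343.4 in *dbp2Δ*, 178.3 to 230.9 in wild-type) and the ratios are separated between strains and the sense counts overlap.

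Of the members, *AAD4*, *AAD6*, *AAD10* and *AAD14* each end 263 to 353 bp from a gene of the *THI5* family, on the opposite strand, whose products make the pyrimidine part of thiamine. In edgeR's test 3 of these 4 genes passed and all 3 rose, with a median log2 fold change of 1.63. Of all genes tested, 42.0% passed and 19.6% rose. *THI5* and *THI12*, like *AAD15*, passed the filter on low counts through the *dbp2Δ* libraries alone. For them only a rise could be called. *THI13* was near the limit in wild-type, with 11, 15 and 21 reads. Nothing is therefore read from this count or from the adjusted p of these 3 genes. *THI5*, beside *AAD6*, had 22, 15 and 19 reads in *dbp2Δ* and 1, 3 and 4 in wild-type (log2 fold change 3.34 ± 0.49, edgeR adjusted p = 0.0023). *THI12*, beside *AAD14*, had 34, 20 and 23 reads in *dbp2Δ* and 8, 10 and 13 in wild-type (1.91 ± 0.38, edgeR adjusted p = 0.0069). *THI13*, beside *AAD4*, passed with all libraries (1.35 ± 0.37, edgeR adjusted p = 0.021) but not without *dbp2Δ* replicate 1 or 3 or wild-type replicate 2 (1.25, 1.19 and 1.34). *THI11*, beside *AAD10*, did not pass (0.37 ± 0.48, edgeR adjusted p = 0.55), and its 74 reads in wild-type replicate 3 stood against 22 in each of the other wild-type libraries; without that library it passed, at 1.12. These genes are near copies of each other, with 37.3 to 59.5% of their windows of 100 bases repeated in the genome, so their single counts are uncertain.

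On the other side, *AGP3*, an amino acid permease gene 1572 bp from the 5′ end of *AAD6*, rose by a log2 fold change of 0.91 ± 0.22 (edgeR adjusted p = 0.014), with 0.83 and no call without *dbp2Δ* replicate 3. YJR154W, 580 bp from the 5′ end of *AAD10*, shared the high wild-type replicate 3, with 365, 365 and 453 reads in *dbp2Δ* and 319, 353 and 1149 in wild-type. Its log2 fold change was 0.00 ± 0.42 (edgeR adjusted p = 0.99), and 0.76, past the threshold, without that library. *AAD10* and the annotated gene on either side of it were thus all raised in wild-type replicate 3. *RDS1*, a transcription factor gene beside *AAD3*, and *RPD3*, the histone deacetylase gene beside *AAD14*, had −0.20 ± 0.18 and −0.11 ± 0.09 (edgeR adjusted p = 0.39 for each). YCR108C, YDL242W, YOL166W-A and YOL164W-A, the remaining nearest neighbours, had 0 to 7 reads per library and were not tested.

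Within 20 kb of *AAD6*, 8 of 14 tested genes rose at an edgeR adjusted p under 0.05 and the other 6 did not pass, with a median log2 fold change of 1.23. Around *AAD14*, 5 of 14 rose and 3 fell. Around *AAD3* and *AAD15*, 4 of 7 rose and 1 fell in each case, with medians of 0.71 and 0.65, whereas *AAD3* and *AAD15* themselves had −0.41 and 3.53. Around *AAD4*, 1 of 11 rose and 2 fell, and around *AAD10*, 1 of 7 rose and 1 fell. Within 30 kb of a chromosome end, a range that holds all 6 members, 298 of 395 counted genes passed the filter on low counts. Of these 298, 98 rose (32.9%) and 41 fell (13.8%), 46.6% together, against 19.6% and 22.4% of all genes tested. Genes that pass the filter through the *dbp2Δ* libraries alone, like *AAD15*, can only be called as rising. Their part in the counts of this paragraph was not tested.

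**Figure D5:**
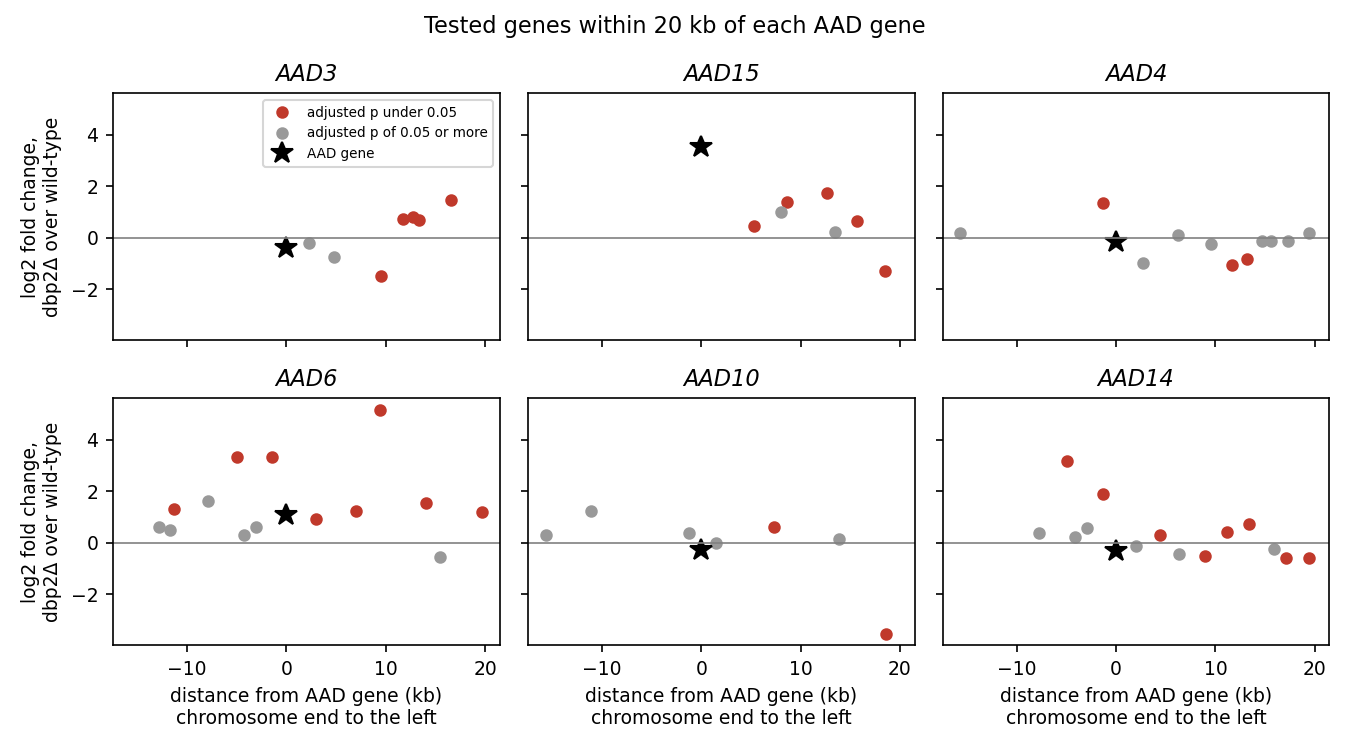
Fold changes of tested genes within 20 kb of each *AAD* gene. The horizontal axis is the distance in kb from the *AAD* gene with the chromosome end to the left, the vertical axis the log2 fold change of *dbp2Δ* over wild-type; red points passed an adjusted p under 0.05, grey points did not and stars are the *AAD* genes, and the panel of *AAD6* holds 8 red points, all above 0.

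The aldo-keto reductases outside the *AAD* family act on sugars, polyols and a range of carbonyl compounds. Of 8 tested, 1 rose, 4 fell and 3 did not pass, with a median log2 fold change of −0.56, against 19.6% of all genes that rose and 22.4% that fell. Without TMM factors 2 rose and 3 fell. The number called was 2 without *dbp2Δ* replicate 2, and 3 without *dbp2Δ* replicate 3 or without wild-type replicate 2. *GRE3*, an aldose reductase gene, fell by 1.41 on the log2 scale (SE 0.21, edgeR adjusted p = 0.0024), and *YPR1* fell by 1.25 (SE 0.20, edgeR adjusted p = 0.0034). YDL124W, which encodes an α-keto amide reductase, fell by 1.80 (SE 0.41, edgeR adjusted p = 0.011) and did not pass without *dbp2Δ* replicate 2. *GCY1*, a glycerol dehydrogenase gene, rose by 1.40 (SE 0.36, edgeR adjusted p = 0.017) and did not pass without *dbp2Δ* replicate 2 or 3 or wild-type replicate 2.

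The Ehrlich pathway turns amino acids into aldehydes and alcohols, among them the aromatic ones that lend the *AAD* family its name. Of 19 genes of this pathway and alcohol dehydrogenases, 6 rose, 4 fell and 9 did not pass, with a median of −0.21. The 52.6% called stood against 42.0% of all genes. The number called was 6 without *dbp2Δ* replicate 3. *PDC5*, a pyruvate decarboxylase gene, rose by 3.30 on the log2 scale (SE 0.30, edgeR adjusted p = 0.00057). *ADH1*, the main alcohol dehydrogenase of fermentation, fell by 1.27 (SE 0.26, edgeR adjusted p = 0.0084), and *ARO8*, an aromatic aminotransferase gene, fell by 1.15 (SE 0.23, edgeR adjusted p = 0.0076). *ADH5*, another alcohol dehydrogenase gene, had 115, 108 and 162 reads in *dbp2Δ* and 955, 1643 and 7901 in wild-type, and fell by 4.13 (SE 0.75, edgeR adjusted p = 0.0052). Without wild-type replicate 3 it fell by 2.81.

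Of 25 genes of the response to oxidants, 5 rose, 6 fell and 14 did not pass, with a median of −0.01. The 44% called was near the 42.0% of all genes. The 11 calls became 3 when *dbp2Δ* replicate 3 was left out, 6 when *dbp2Δ* replicate 1 or 2 was, 5 when wild-type replicate 2 was, and 15 when wild-type replicate 3 was. *YAP1* itself had a log2 fold change of 0.10 ± 0.17 (edgeR adjusted p = 0.64). *SRX1*, the sulfiredoxin gene, rose by 2.92 (SE 0.37, edgeR adjusted p = 0.0015), and *CTA1*, the peroxisomal catalase gene, rose by 1.25 (SE 0.20, edgeR adjusted p = 0.0034). *ZWF1*, the glucose-6-phosphate dehydrogenase gene, fell by 1.79 (SE 0.36, edgeR adjusted p = 0.0078). *GSH1*, which acts in glutathione synthesis, fell by 0.73 (SE 0.20, edgeR adjusted p = 0.023) but did not pass without any 1 of the *dbp2Δ* libraries or without wild-type replicate 2.

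Over the 6 libraries, log2 levels of *AAD6* and *AAD15* followed each other with a Pearson r of 0.998, and *AAD3* and *AAD10* had an r of 0.741. *AAD4* and *AAD6* had an r of −0.323, and *AAD10* and *AAD14* an r of 0.393. These values describe 6 libraries in which libraries of the same strain also lie close in depth. *AAD6* and *AAD15* are the members separated between strains, so their r includes the strain difference known when members were chosen. *AAD15* also had only 5, 6 and 3 reads in wild-type. Nothing about shared regulation is read from this value. Among 5479 genes, those most like the summed *AAD* counts were *BUD16* (r = 0.993), *RPS4B* (0.992), *SMN1* (0.991), *FCY2* (0.989) and *YHM2* (0.982). Each of these, like the sum, was highest in wild-type replicate 3 and lowest in the other wild-type libraries. This order largely follows from their choice by correlation with the sum.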

How the data were processed

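Raw read counts per library, for genes and for antisense transcripts, were deposited by the authors. Tools and build named in the submitters' processing notes are featureCounts, edgeR and R64, and the aligner, strand setting and treatment of multiply matching reads were not given in the sources used here. Counts were tested with edgeR 4.0.16 in R 4.3.3 (TMM, filterByExpr, glmQLFit, glmQLFTest) over 5943 genes, with strain as the only factor and calls at 0.05 after Benjamini-Hochberg adjustment. The antisense fit used the effective library sizes of the genes. Of the gene identifiers, 5953 of 7032 matched R64. Sequences were compared with Biopython 1.88 and MAFFT 7.526, as DNA because no protein table was used here. On counts simulated for this comparison (5943 genes), 74% of genes with a log2 fold change of 1 and 100% with 2 were called, and 4.92% of calls were false. These shares describe the simulated counts only. In the data the spread of replicates differed between the strains, and the share of false calls there was not tested.

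Members and lists were chosen with earlier results of these data known. Named were all members, their nearest neighbours, *THI5* family and strain marker genes, the 5 genes most like the family's sum, and in each other list the 4 called genes with the largest change and a mean count of at least 50. *YAP1* was named after its value was seen. Alternatives were DESeq2 1.42.0, its size factors, upper quartile scaling, no TMM factors, no filter, a replicate block and each library left out.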

Additional observations from a re-analysis of the deposited data

How the results depend on the processing

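The fold changes of the 6 members, given as a description, kept their sign under DESeq2, its size factors, upper quartile scaling, no TMM factors, no filter on low counts and the replicate block, and the 2 members without overlap between strains stayed 2. *AAD6* ranged from 1.09 to 1.18, *AAD15* from 3.51 to 3.61 and *AAD10* from −0.27 to −0.03, and the antisense transcript of *AAD14* from 0.65 to 0.73. All genes called numbered 1997 to 2588. Scaling moved the median of all genes to at most 0.06.

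Replicate numbers did not pair the libraries, since deviations of same-numbered libraries correlated at −0.08, −0.14 and 0.00. With the replicate block 1997 genes were called, among them 7 genes of the response to oxidants in place of 11 (4 higher, 3 lower), and every other list count stayed within 1.5 times. The cause was not tested.

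With each library left out in turn, the number of genes called ranged from 1430 to 3082 and *AAD* members without overlap from 2 to 5, with 5 reached without wild-type replicate 2. Called genes ranged from 2 to 7 for other aldo-keto reductases, 6 to 15 for the Ehrlich list, 3 to 15 for the response to oxidants and 2 to 4 for the *THI5* family. The fold change of *AAD10* ran from −0.57 to 0.54. Fewer libraries were fitted, and further causes were not tested. *AAD15*, with 3 to 6 reads per wild-type library, is the member most limited by depth.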

Other observations

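*ARO9* and *ARO10*, the aromatic aminotransferase and decarboxylase genes that make aromatic aldehydes, were chosen after their values were seen. *ARO9* had 294, 479 and 538 reads in *dbp2Δ* and 53, 66 and 2281 in wild-type, and *ARO10* had 170, 373 and 345 in *dbp2Δ* and 42, 83 and 3593 in wild-type. Wild-type replicate 3 was thus above all *dbp2Δ* libraries and the other wild-type libraries below them, the same order as for *AAD10*. Neither gene passed edgeR's test (adjusted p = 0.90 for *ARO9* and 0.43 for *ARO10*).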
